A study of Mus musculus with 14 samples.

Results

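The genes described here are 10 immediate early genes of the serum response, namely Egr2, Egr3, Egr4, Ier2, Ier3, Ier5, Srf, Nr4a1, Dusp1 and Zfp36. They were chosen by name, and their H3K27ac sites were chosen by position: a site belonged to a gene if any of its bases lay in the annotated gene body or within 30 kb of either end. This rule gave 129 sites out of 122228 in the whole list, of which 122171 were on chromosomes 1 to 19 and X. The genes compared with them were all 21755 protein-coding genes on these chromosomes.

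The study asked how acetylation of lysine 27 of histone H3 (H3K27ac) changes when ASH2L, a core subunit of the complexes that methylate lysine 4 of histone H3, is removed. The cells were immortalised mouse embryo fibroblasts (iMEF) with floxed Ash2l alleles, in which exon 4 had been deleted by Cre-ER and which lived on a lentiviral human ASH2L carrying an FKBP tag (FKBP-HA2). All H3K27ac libraries, controls included, came from such cells of a single clone (NG3), so every group shared the deletion and the tagged protein, and variation between clones was not measured. Control cells were untreated, and the other cells were exposed to dTAG, a molecule that triggers degradation of the tagged protein, for 30 min, 2 h, 4 h, 8 h or 16 h. There were 2 H3K27ac libraries per group and 1 input library each for control and 16 h.

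The sites of all groups had been joined into a list of positions, without a read count or a label of the sample. A site could thus come from any of the 6 groups, and read depth, replicate spread and changes over time could not be taken from this list. Changes over time were not analysed here. All values below are positions, widths and counts in this list, and no test between conditions was possible. As a check of the cell type, a site overlapped the 1 kb around a transcription start site (TSS) for 7 of 8 fibroblast markers, the exception being Lum. The same was true of 0 of 3 leukocyte markers, 0 of 3 pluripotency markers, 1 of 3 epithelial markers (Krt8) and 1 of 3 endothelial markers (Cdh5).

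Immediate early genes are transcribed within minutes after growth factors reach a cell, without the need for new protein. The main route runs through the MAP kinases ERK1 and ERK2 to serum response factor (SRF), which binds the CArG box together with ternary complex factors such as ELK1. In other contexts SRF works with the actin-controlled MRTF proteins. Many of these promoters also carry cAMP response elements (CRE) bound by CREB. The products include transcription factors that drive the next wave of genes and inhibitors that switch the response off again. H3K27ac, deposited by the acetyltransferases CBP and p300, marks active promoters and enhancers.

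The promoter sequences were looked at first, because they show that the SRF motif and the mark did not go together in every gene. RefSeq promoter windows of GRCm38.p6, reaching from 250 bp before to 50 bp after a start, were given for 8 of the 10 genes. Egr3 and Ier2 had no window, so their promoters were not searched for these motifs. A CArG box, which reads CC, then 6 bases of A or T, then GG on either strand, was present in 3 of 8, namely Egr2, Srf and Zfp36. Among 16433 protein-coding genes with such a window, 1.76% had a CArG box. Genes with several starts have several windows, 5 in the case of Egr2, and of all 20061 windows 1.52% had the box. The full CRE, TGACGTCA, was found in 1 of 8 (Dusp1), compared to 2.65% of the coding genes. Its core TGACG, which is part of the full CRE and was counted on either strand, was found in 5 of 8 (Egr2, Egr4, Srf, Nr4a1 and Dusp1), compared to 27% of the coding genes. A match of letters is not a measurement of binding.

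The stretches below show the boxes of the SRF-type promoters, read 5′ to 3′ along the gene with CArG boxes and the core TGACG or CGTCA in capitals. For Srf and Zfp36, whose upstream bases are part of an annotated longer transcript (a predicted RefSeq transcript of Srf, which extends beyond the GENCODE gene, and a GENCODE transcript of Zfp36), only 30 bases are shown. The Egr2 stretches are chr10:67537316-67537565 and chr10:67537787-67537816 on the plus strand, the Srf stretch is chr17:46556215-46556244 and the Zfp36 stretch is chr7:28379267-28379296, both on the minus strand.
Egr2 before the start at 2091 bp: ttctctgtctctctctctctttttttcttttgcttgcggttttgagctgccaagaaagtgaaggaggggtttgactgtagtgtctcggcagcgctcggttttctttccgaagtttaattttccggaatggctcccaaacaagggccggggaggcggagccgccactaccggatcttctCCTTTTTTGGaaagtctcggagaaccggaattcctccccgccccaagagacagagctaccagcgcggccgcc
Egr2 before the principal start: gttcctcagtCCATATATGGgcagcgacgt
Srf: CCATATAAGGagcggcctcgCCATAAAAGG
Zfp36: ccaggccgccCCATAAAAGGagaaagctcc

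Egr2 had a pair of CArG boxes, each 72 bp before a RefSeq start, these starts lying 2091 and 2394 bp from the outermost annotated 5′ end. Neither box was in a site. The Srf promoter had its boxes 82 and 62 bp before the RefSeq start. The box farther from the start lay in 0 bases of any site, and 7 of the 10 bases of the nearer box were inside the site that covered the Srf start. The box of Zfp36, 58 bp before a RefSeq start lying 1025 bp from the outermost annotated 5′ end, was wholly inside a site. The boxes of Srf and Zfp36 nearest to the start shared the letters CCATAAAAGG.

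The next stretches show promoters with the CRE or its core and without a CArG box. Egr4 is chr6:85513590-85513839 on the minus strand, Nr4a1 is chr15:101266596-101266845 on the plus strand and Dusp1 is chr17:26508520-26508722 on the minus strand. They hold upstream bases outside annotated exons.
Egr4: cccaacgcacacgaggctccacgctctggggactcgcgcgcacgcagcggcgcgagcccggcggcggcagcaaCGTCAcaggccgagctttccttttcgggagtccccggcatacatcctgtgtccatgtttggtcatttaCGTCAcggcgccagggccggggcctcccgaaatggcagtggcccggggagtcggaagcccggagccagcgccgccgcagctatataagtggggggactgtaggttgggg
Nr4a1: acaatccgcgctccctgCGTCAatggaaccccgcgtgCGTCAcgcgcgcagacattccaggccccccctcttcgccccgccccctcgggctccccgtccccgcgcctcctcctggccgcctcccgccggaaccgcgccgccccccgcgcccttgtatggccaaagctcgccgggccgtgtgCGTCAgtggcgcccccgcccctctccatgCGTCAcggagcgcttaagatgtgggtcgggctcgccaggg
Dusp1: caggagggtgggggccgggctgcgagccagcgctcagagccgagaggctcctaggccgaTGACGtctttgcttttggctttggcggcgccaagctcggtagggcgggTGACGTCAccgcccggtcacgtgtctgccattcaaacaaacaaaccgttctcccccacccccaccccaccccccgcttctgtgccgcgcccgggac

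The Egr4 window had the core at 177 and 109 bp before the start, and 0 of its bases were in a site. The Nr4a1 window had it 4 times, at 233, 213, 69 and 40 bp before the start, and all of these lay in the gap between neighbouring sites. The Dusp1 window lay wholly in a site, 300 of 300 bp, with the full CRE 143 bp before the RefSeq start. Egr2 and Egr4 thus carried the letters of these motifs, as did genes with sites.

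The genes were then compared by the presence of a site at a start. A site overlapped the 1 kb on either side of a TSS in 8 of 10 genes, compared to 55.8% of all protein-coding genes. When the middle of the site had to lie within 1 kb of a TSS, the count was 7 of 10, compared to 54.7%. The difference was Zfp36, whose site over the start was so wide that its middle lay farther in the gene. The outermost annotated 5′ end was inside a site in 6 of 10 genes (Egr3, Ier3, Srf, Nr4a1, Dusp1 and Zfp36), compared to 36.5%. The start of the principal coding transcript, which differs from the outermost end in Egr2, Egr3, Nr4a1 and Dusp1, was inside a site in the same 6 genes, compared to 38.3%. The genes without any overlap were Egr2 and Egr4.

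All 10 genes had a CpG island (CGI) within 1 kb of a TSS, compared to 58.1% of coding genes, so the comparison with other CGI genes is the closer one. Among the 12649 coding genes with such a CGI, 80.4% had a site with its middle within 1 kb of a TSS. The 7 of 10 counted in the same way were thus near this background. The principal start was inside a site in 7287 of these 12649 genes. The 6 of 10 genes with the principal start inside a site were therefore near the CGI background as well. For the outermost annotated end no share among CGI genes was taken. What follows concerns the extent and the place of the sites.

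**Figure D1:**
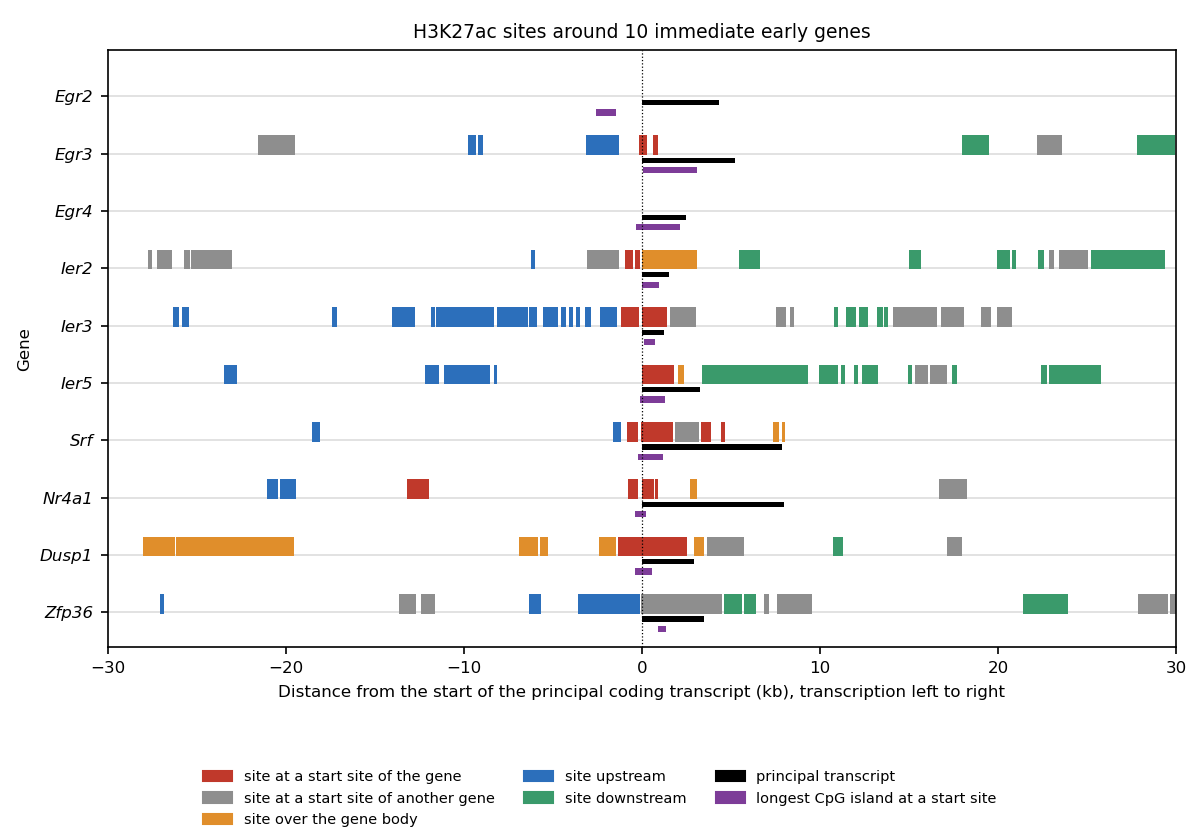
H3K27ac sites from 30 kb before to 30 kb after the start of the principal coding transcript of each gene, with the x axis in kb and transcription drawn left to right. Coloured boxes are sites, black bars are principal transcripts and purple bars are the longest CGI at a start. Egr2 and Egr4 have 0 sites, and the other 8 genes have sites on both sides of the start.

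The zinc finger transcription factors of the EGR family, which bind GC-rich elements, comprised the genes without sites, Egr2 and Egr4, and Egr3, which had sites. Egr2 (chr10:67535475-67542188, plus strand, 6714 bp) had 0 sites in its body and 30 kb of either end. The nearest sites were 316113 bp upstream and 174790 bp downstream of the gene. Egr2 is a regulator of Schwann cell myelination and of the early hindbrain. Egr4 (chr6:85511121-85513589, minus strand, 2469 bp) had 0 sites as well, with the nearest 73968 bp upstream and 40718 bp downstream. Both genes thus lay in gaps of the list that extended beyond the window, and in the case of Egr2 far beyond it.

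A lack of sites within 30 kb was found in 21.9% of all coding genes, but in 6.44% of the coding genes with a CGI (814 of 12649). The CGI of Egr2 was 1139 bp long and that of Egr4 2514 bp, and 0% of either was in sites. The windows held 0 unsequenced bases in each of the 10 genes. Repeats made up 17.4% of the Egr2 window and 31.4% of the Egr4 window, within the range of 17.8 to 33.8% of the other genes or just under it.

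Egr3 (chr14:70077203-70082614, plus strand, 5412 bp), which takes part in muscle spindle development and in lymphocytes, had 10 sites. A site of 471 bp (chr14:70077134-70077604) reached from 180 bp before to 290 bp after the principal start, over the 5′ UTR and coding sequence, and a site of 265 bp followed at 632 bp. Together they covered 12.3% of the gene body. The CGI at the Egr3 start was the longest among the 10 genes, with 3084 bp, and extended well past both sites. A wider site of 1883 bp lay 3170 to 1288 bp before the start, and 2 further sites lay between 9754 and 8918 bp before it.

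**Figure D2:**
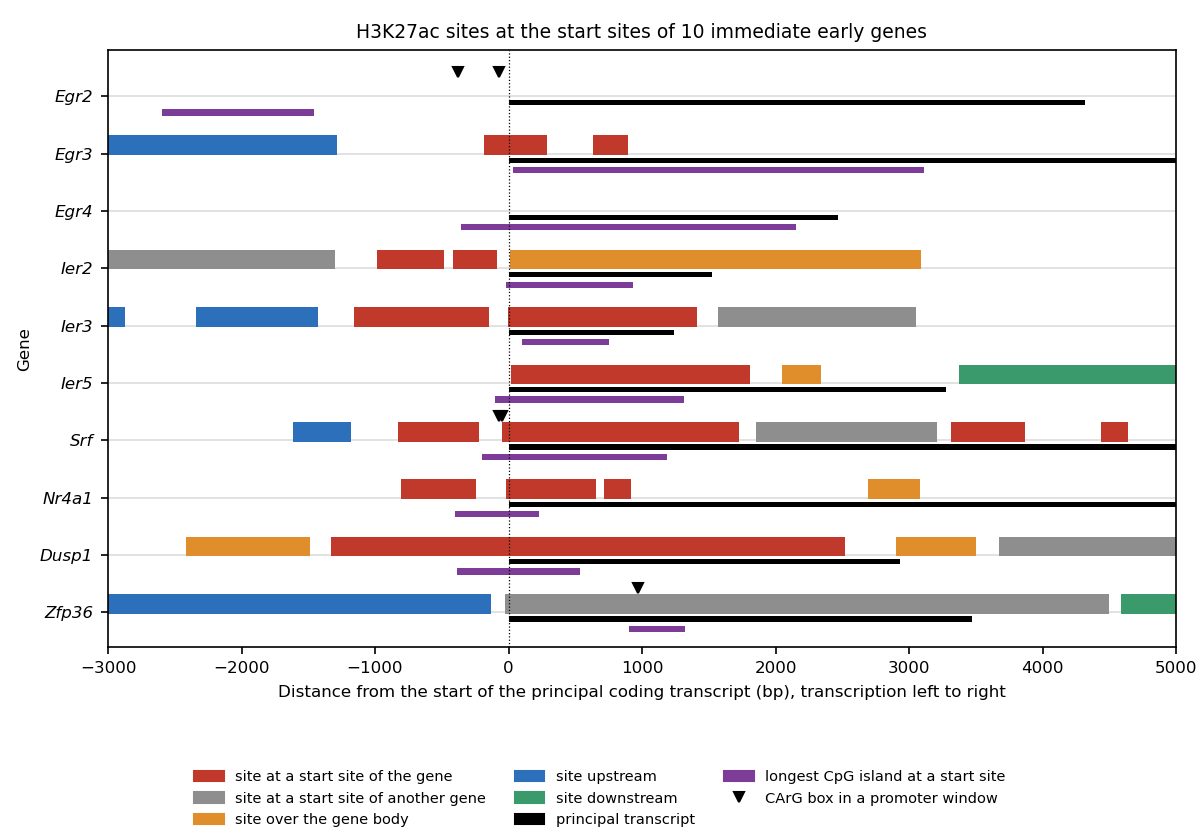
Sites from 3000 bp before to 5000 bp after the principal start, drawn as in the plot of the 30 kb windows, with the x axis in bp and triangles at CArG boxes found in RefSeq promoter windows. Egr3 and Ier2 had no such window, so no triangle could be drawn for them. In Ier2, Ier3, Ier5, Srf, Nr4a1 and Zfp36 a site begins within 50 bp of the start and extends into the gene, and in Egr2 both boxes lie outside any site.

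The IER genes encode small regulatory proteins of the growth factor response. Ier2 (chr8:84661331-84662852, minus strand, 1522 bp), a nuclear protein, was covered to 99.3% by a single site of 3080 bp (chr8:84659763-84662842). This site began 10 bp after the start and ended 3089 bp after it, well past the end of the gene. Before the start, 2 sites of 328 and 497 bp lay at 416 to 89 bp and at 982 to 486 bp. The start of Ier2 was therefore in a gap of 98 bp between sites, and the gene body beyond it was covered.

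Ier3 (chr17:35821684-35822923, plus strand, 1240 bp), which modulates ERK signalling and cell survival, lay wholly inside a site of 1413 bp (chr17:35821680-35823092). The site began 4 bp before the start and ended 1408 bp after it. Ier3 had the most sites of the 10 genes, 28, and 36.7% of its window was in sites, a larger share than in 99.3% of the coding genes. Of these sites, 14 were upstream and away from any annotated TSS, spread from 26369 to 1425 bp before the start. The widest of them measured 3262 bp (chr17:35810095-35813356, 11589 to 8328 bp before the start), and from there to the promoter the list was interrupted only by short gaps. Downstream of Ier3, sites belonged in part to the promoters of Flot1, Tubb5 and Mdc1.

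Ier5 (chr1:155096361-155099636, minus strand, 3276 bp), a cofactor of heat shock factor HSF1, differed in that its upstream side was bare up to 8121 bp. The site over the gene (chr1:155097828-155099615, 1788 bp) began 21 bp after the start, and together with a site of 295 bp in the 3′ part of the transcript it covered 63.6% of the body. The widest site near Ier5 lay beyond its end, from 3375 to 9330 bp after the start. It measured 5956 bp (chr1:155090306-155096261), and 99.8% of the list was narrower. Within 30 kb downstream of the start 53.0% of the bases were in sites, compared to 14.2% within 30 kb upstream. Ier5 was thus the gene with the largest excess of the downstream over the upstream side.

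Srf (chr17:46548329-46556175, minus strand, 7847 bp), which encodes the factor that binds the CArG box, had 9 sites, fewer than any other gene with sites. The site over the start (chr17:46554452-46556221) measured 1770 bp and reached from 46 bp before to 1723 bp after it. Before it, a gap of 172 bp separated it from a site of 608 bp. Within the gene 53.3% of the body was in sites, among them a site of 1356 bp counted at the TSS of Mir6976 and 2 narrow sites in the 3′ UTR. Beyond 1612 bp upstream, a single site of 489 bp was found, in the body of Ptk7, and 5.25% of the 30 kb upstream were in sites. At Srf the sites were thus concentrated on the gene itself.

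Nr4a1 (chr15:101254269-101274795, plus strand, 20527 bp) encodes the orphan nuclear receptor NUR77. Its annotation has an upstream start, and the principal start lies 12577 bp farther in. Both were inside sites, of 1226 bp (chr15:101253655-101254880) and of 670 bp (chr15:101266828-101267497). The latter began 18 bp before the principal start and was preceded by a gap of 228 bp and a site of 561 bp. Unlike in the IER genes, the mark did not extend through the gene, and 15.6% of the principal transcript was in sites. A pair of upstream sites of 582 and 943 bp lay 21047 to 19414 bp before the principal start, outside any other coding gene.

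The feedback regulators Dusp1 and Zfp36 had the widest sites over a start. Dusp1 encodes the phosphatase MKP-1, which inactivates MAP kinases. GENCODE places its outermost 5′ end 53609 bp before the principal start, next to the promoter of Ergic1, so that its annotated body (chr17:26505590-26562128, minus strand, 56539 bp) was covered to 28.6%. The principal transcript of 2930 bp was covered to 86.9%. A site of 3850 bp (chr17:26506000-26509849) extended from 1330 bp before to 2519 bp after the principal start. The widest site of all 10 genes lay 26155 to 19575 bp before this start. It measured 6581 bp (chr17:26528094-26534674), was intronic in the long annotated transcripts, and had a site of 1801 bp next to it. Of the 24 sites by the rule, 12 were upstream of the outermost end and away from TSSs of other genes, and each of these overlapped Ergic1. Counted from the principal start, Dusp1 had 5 sites away from TSSs within 30 kb upstream.

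Zfp36 (chr7:28376784-28380253, minus strand, 3470 bp) encodes tristetraprolin, which binds AU-rich elements and promotes decay of immediate early and cytokine mRNAs. A site of 4530 bp (chr7:28375753-28380282) covered the whole gene, beginning 29 bp before the principal start and ending 4500 bp after it. The RefSeq start with the CArG box lies 1025 bp farther in, inside this site. The site was counted at a TSS of Gm44710 because of its middle. After a gap of 100 bp, a site of 3446 bp reached from 130 to 3575 bp upstream. These sites were wider than 99.5% and 98.9% of the list. Zfp36 thus lay in an almost unbroken stretch of sites from before its start to beyond its end.

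The edge of the mark at the start was a feature shared by several genes that the choice of genes had not used. It was noticed in these data and is given as a description. Among the 8 genes with a site near the principal start, a site began within 50 bp of it in 6 (Ier2, Ier3, Ier5, Srf, Nr4a1 and Zfp36), compared to 33.9% of 11444 coding genes. In 5 of 8 this edge came after a gap of less than 250 bp from an upstream site, compared to 18.4%. The gaps measured 98 bp (Ier2), 100 bp (Zfp36), 139 bp (Ier3), 172 bp (Srf) and 228 bp (Nr4a1). The exceptions were Egr3, whose site began 180 bp before the start, and Dusp1, whose start was well inside a site, while Ier5 had the edge without a nearby upstream site. For Zfp36 these counts depend on the annotation. The RefSeq start used for its promoter window lies 1025 bp after the principal start, and 300 of 300 bp of that window were in a site. At the RefSeq start Zfp36 had neither the edge nor the gap. Base by base, 20% of the 10 genes were in a site 50 bp before the start and 80% were 50 bp after it. In coding genes with a CGI the shares were 43.7% and 69.2%. The low share just before the start was confined to a narrow stretch. At 250 bp before the start, 60% of the 10 genes and 55.0% of the CGI genes were in a site.

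**Figure D3:**
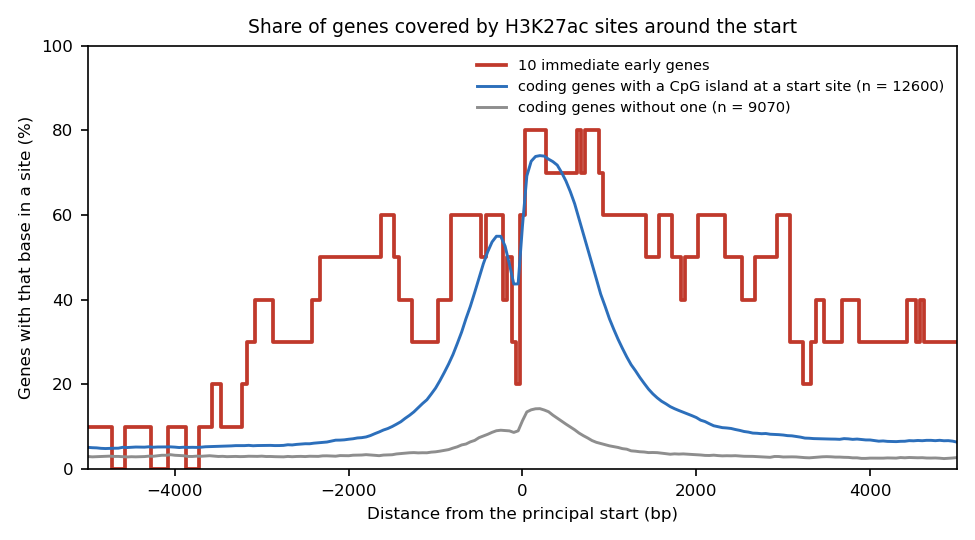
Percentage of genes with a given base in a site, from 5000 bp before to 5000 bp after the principal start, for the 10 genes, for 12600 coding genes with a CGI at a start and for 9070 without. At 1000 bp after the start 60% of the 10 genes are in a site, compared to 35.5% and 5.49%.

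The mark extended farther into the gene than in coding genes with a CGI. At 2000 bp after the start, 50% of the 10 genes were in a site, compared to 12.2% of CGI genes. For Ier2 and Ier3 this position lay beyond the end of the gene, and at Ier3 it was in a site at a TSS of Flot1. Srf, Dusp1 and Zfp36 were in a site within the gene there. At least 99% of the gene body was in sites in 3 of 10 genes (Ier2, Ier3 and Zfp36), compared to 0.492% of coding genes. The share was 3.03% among coding genes with a CGI and a body of at most 10 kb (92 of 3040), and among 40 other immediate early genes it was 2 of 40. The median share of the body in sites was 40.9% over the 10 genes, with a range from 0 to 100%. Over all coding genes it was 2.22%. Among coding genes with a CGI and a body of at most 10 kb, the median was 15.8%. By annotated body, the genes fell into those covered to more than 50% (Ier2, Ier3, Ier5, Srf and Zfp36), those covered to less than 30% (Egr3, Nr4a1 and Dusp1) and those at 0% (Egr2 and Egr4). By principal transcript, Dusp1 was covered to 86.9% and would join the first group, whereas Egr3 (10.6%) and Nr4a1 (15.6%) would not.

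**Figure D4:**
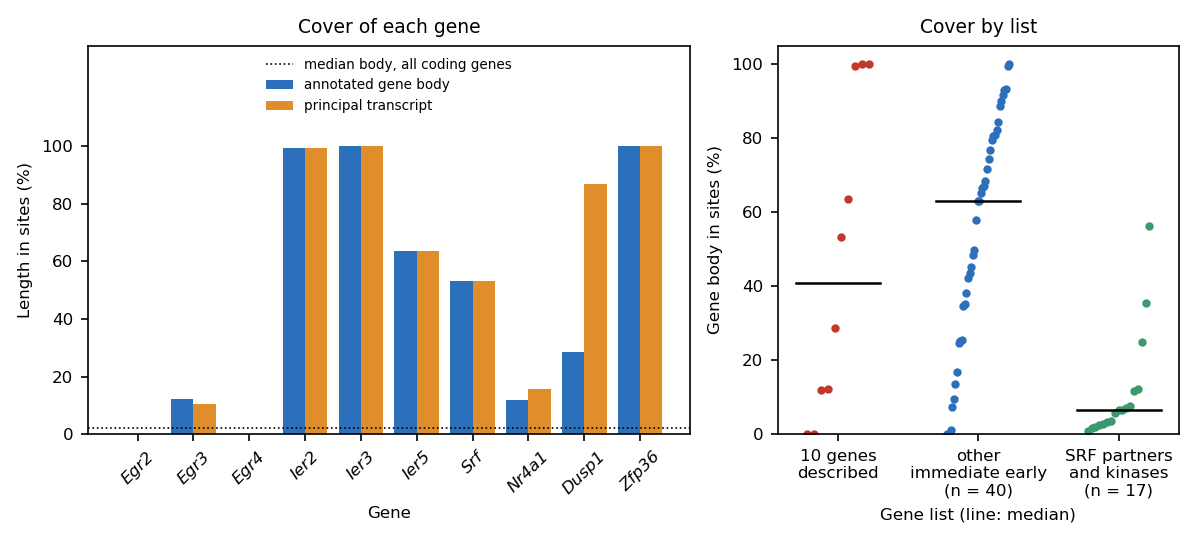
Left, percentage of the annotated gene body and of the principal transcript in sites for each gene, with the median body of all coding genes (2.22%) as a dotted line. Right, percentage of the gene body in sites for the 10 genes, 40 other immediate early genes and 17 SRF partners and kinases, a point per gene and a line at the median.

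Sites near these genes were wider than the list as a whole, but those at the genes' own TSSs were not wider than other promoter sites. The median width was 680 bp over the 129 sites, compared to 401 bp over the list, and 19 of 129 (14.7%) were wider than 2 kb, compared to 4.33% of the list. Promoter sites are wider than others in the list as a whole, with medians of 678 bp and 369 bp. The sites at a TSS of the gene itself had a median of 608 bp, and those at a TSS of another gene 931 bp. Away from TSSs the medians were 528 bp upstream, 596 bp in the body and 599 bp downstream. In total 17 sites were at a TSS of the gene itself, 32 at a TSS of another gene, 11 in the body, 42 upstream and 27 downstream. In the list 22885 of 122171 sites were at a TSS, a smaller share, so the medians over all sites compare different mixes of sites. Upstream sites were unevenly shared, with 14 at Ier3, 12 at Dusp1, 4 at Ier5, 3 each at Egr3, Nr4a1 and Zfp36, 2 at Srf and 1 at Ier2.

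The 30 kb before the principal start were in sites to a median of 15.2% over the 10 genes, compared to 2.14% over all coding genes. For CGI genes a median was taken only over the body and 30 kb of either end together. There it was 23.2% over the 10 genes and 3.22% over all coding genes. It was 4.99% over coding genes with a CGI and 7.30% over those with a body of at most 10 kb. Over the 40 other immediate early genes it was 16.5%. For the 30 kb before the principal start alone, the highest shares were those of Dusp1 (40.6%) and Ier3 (39.2%), each above those of more than 98% of the coding genes. Ier2 (21.4%), Zfp36 (20.4%), Egr3 (16.2%), Ier5 (14.2%), Nr4a1 (11.1%) and Srf (5.25%) followed. All these shares include sites at TSSs, also those of other genes. At Ier2 they include a site of 2281 bp at Nacc1 and Trmt1, and only 1 upstream site, of 200 bp, was away from any TSS. The share of Egr3 includes a site of 2082 bp at Gm33524, and that of Zfp36 includes sites at Med29 and Paf1. On the downstream side the order differed, with Ier5 (53.0%), Zfp36 (43.6%) and Ier2 (41.0%) ahead of Ier3 (35.7%). The genes with the widest cover upstream were therefore not those with the widest cover downstream.

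Motifs in the sites away from TSSs were near the background. A CArG box was in the middle 300 bp of 1 of 80 such sites of the 10 genes, compared to 1.54% of 99286 sites of this kind in the list. The AP-1 motif TGACTCA, read on either strand and bound by FOS and JUN, was in the middle of 7 of 80 (8.75%), compared to 9.71%. Over their whole length, 4 of these 80 sites had a CArG box. No share over the list was taken for whole lengths, so this count has no background. The 4 sites measured 547, 1883, 2577 and 4142 bp, and a wide site has more bases in which the letters can occur. The upstream ones among them are shown as places where the SRF motif lay in the mark at a distance from a start. The Egr3 box was 2443 bp before the principal start in the site of 1883 bp (chr14:70074861-70074890, plus strand), and the Ier5 box was 10269 bp before the start in a site of 2577 bp (chr1:155109886-155109915, minus strand). Capitals mark the box.
Egr3 upstream: ctgtgcggttCCTTTAAAGGctgcgggttc
Ier5 upstream: gaagacctttCCAAATATGGgggcgaggtg

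Finally, the genes were set beside related lists. Of 40 other immediate early genes, 38 had a site overlapping the 1 kb around a TSS, and Jund and Dusp2 did not. Counted by the middle of the site, 37 of 40 had one, and the additional gene without was Jun. A lack of sites within 30 kb, seen in Egr2 and Egr4, occurred in 0 of the 40. Their median body cover was 63.0%, above that of the 10 genes, with Gadd45b (100%), Ier5l (99.4%) and Myc (93.2%) highest. Extended cover of the gene body was thus found in the other immediate early genes as well.

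Of 17 genes for SRF partners and the kinases above them, 16 had such a site, and the exception was Myocd, the muscle-specific partner of SRF. The list comprised the ternary complex factors, the MRTF genes, Myocd, the RAF, MEK, ERK and RSK kinases and Creb1, which encodes CREB. Their bodies are long, with a median of 64072 bp, and the median cover was 6.47%. Sites in these upstream regulators thus lay at the promoter with little cover of the body, whereas in Ier2, Ier3 and Zfp36 the sites covered the gene.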

How the data were processed

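ChIP-seq libraries of iMEF cells were trimmed by the authors with Trim Galore, aligned with BWA to mm10 and filtered as ENCODE recommends, and replicates were merged with Picard. Narrow peaks were called with MACS (threshold not given in the sources used here) and joined into a single list of positions, which was deposited without counts. Starts were read as counted from 0 and are printed counted from 1.

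The 10 genes and the gene lists were chosen with earlier results of these data known. All 10 genes are named, other genes by a rule (promoters at counted sites, list members without a promoter site, the 3 highest body covers among the other immediate early genes), to which Ptk7 was added after its values were seen. Genes were those of GENCODE M21, and the authors used a later release. The principal transcript was chosen by APPRIS level, support level and length. CGIs were called from GRCm38.p6 (at least 200 bp, 50% GC and 0.6 of the CpGs expected from base composition). Promoter sequences were from RefSeq (GRCm38.p6). Procedures were tested on simulated data. Calculations used Python 3.11.15, pandas and numpy.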

Additional observations from a re-analysis of the deposited data

How the results depend on the processing

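The list holds no counts, so depth, replicate spread and the time point behind a site are unknown, and a joined site can be wider than in any sample. Of 28 alternatives to the counts of 7 results, 23 stayed within 1.5 times the value reported. The 129 sites became 70 with flanks of 10 kb and 50 after sites less than 1 kb apart were merged. The 42 upstream sites became 22 within 10 kb and 69 within 50 kb. With 1 mismatch allowed, 7 of 8 promoters had a CArG box in place of 3, compared to 22.2% of coding genes. Median body cover ranged from 39.6% without the narrowest 25% of sites to 60.4% over exons. Of the alternatives, 4 were chosen after seeing the data (principal start or transcript). No paired analysis was possible because positions carry no value per sample, and for the same reason a replicate could not be left out.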
